A study of Canis lupus familiaris with 12 samples.

Results

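Interferon-stimulated antiviral genes are the genes that a cell switches on after it senses interferon. Here they are a list of 39 gene symbols, matched to the gene tables by symbol after removal of the suffix that numbers copies of a gene. The rule uses names and no measured value, but the list was drawn up with earlier results of these data known. Of the 39 genes, 31 had a row, and these made up 32 of the 29822 rows because OASL had 2 copies, OASL_1 and OASL_2. CMPK2, HERC5, IFIH1, IRF7, IRF9, MX1, SAMD9 and USP18 had no row of that name and were not analysed here. IFI6 had only 34 exon reads in the 12 libraries together, with 0 to 10 per library, and was not tested, which left 31 tested rows from 30 genes.

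Type I interferons bind a receptor whose kinases, JAK1 and TYK2, phosphorylate transcription factors that include STAT2. STAT2 acts in a complex with IRF9 that binds interferon-stimulated response elements in the promoters of these genes. Their products sense viral RNA, block its translation, degrade it, or trap new virus particles, and the same genes are transcribed at a lower level in resting blood cells. The roles given below are known from human and mouse cells.

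The samples were peripheral blood mononuclear cells of healthy specific pathogen-free male beagles kept as blood donors, cultured with 10% fetal bovine serum. ConA cells received the T cell mitogen concanavalin A at 0.5 µg/ml, and ConA+ALA cells received it together with 5-aminolevulinic acid (ALA), the precursor of heme, at 1.0 mM. ALA cells received ALA alone at 1.0 mM, and untreated cells received neither, all for 24 h. Each of the 4 groups had 3 libraries, numbered 1 to 3 in every group; the labels do not say whether a number stands for 1 animal, so the p-values describe only how far these libraries scatter, which may be technical.

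The libraries held 13390692 to 21517099 exon reads and 11856 to 12917 genes with at least 10 reads. Number 1 libraries stood apart by a mitochondrial share of 3.59 to 4.82% of exon reads, against 11.8 to 23.3% in numbers 2 and 3. Some library measures moved with ConA too. The mitochondrial share in numbers 1, 2 and 3 was 4.48, 23.3 and 17.2% in ConA libraries, against 3.98, 12.7 and 13.1% in untreated libraries. Introns held 29.1, 35.1 and 34.5% of gene reads in ConA libraries, against 32.7, 39.7 and 36.2% in untreated libraries. In each number of both ConA comparisons the library with ConA had the smaller intron share and fewer genes at 10 or more reads; the part of these measures in the results was not tested. Libraries of the same number deviated together from their group means, so a fit that takes the number as a block is also given where it alters a call. The listed genes took 0.185, 0.188 and 0.197% of exon reads in ConA libraries 1, 2 and 3. They took 0.236, 0.302 and 0.219% in ConA+ALA libraries, 0.849, 0.927 and 0.503% in ALA libraries, and 0.688, 0.925 and 0.399% in untreated libraries. Every library with ConA was thus below every library without it. As these are bulk samples, fewer cells of a type and less RNA per cell cannot be told apart in any result that follows.

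Per exon length, ISG15 and ISG20 stood first in untreated cells, at 606 ± 436 and 586 ± 202 TPM (SD, n = 3), followed by MX2 at 351 ± 251 TPM. These 3 levels did not differ beyond their spread. The lowest tested genes in untreated cells were EIF2AK2 at 14.5 ± 5.96 TPM and RSAD2 at 9.99 ± 7.01 TPM. In ConA cells ISG20 stood first, at 445 ± 24.99 TPM, with ISG15 next at 93.1 ± 36.9 TPM and RSAD2 last at 0.426 ± 0.347 TPM (SD, n = 3). ISG20 was likewise first in ConA+ALA cells, at 521 ± 61.8 TPM against 190 ± 77.1 TPM for ISG15. TPM values are the authors' own, and all other levels are exon reads scaled to TMM-adjusted library sizes (CPM).

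**Figure D1:**
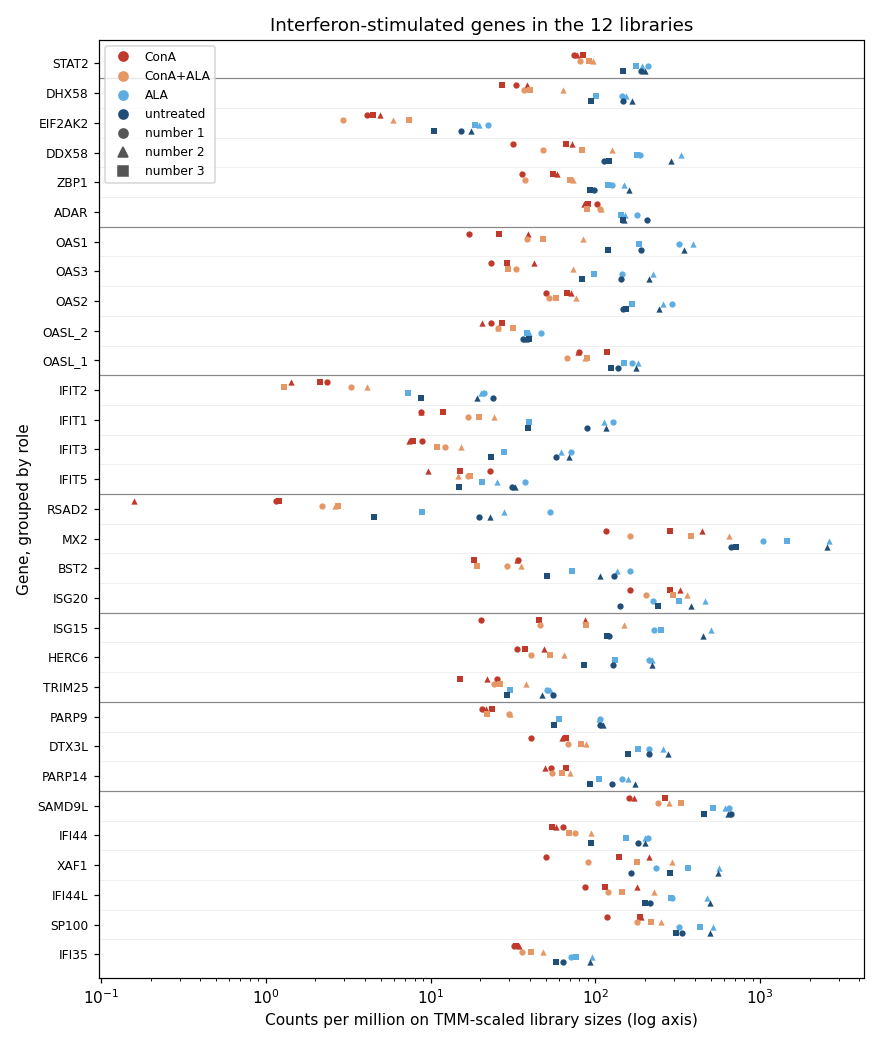
Level of the 31 tested genes in each of the 12 libraries, in CPM on a log axis, with genes grouped by role and 1 point per library; colours mark the group and shapes the number. Points of ConA and ConA+ALA libraries lie left of those of ALA and untreated libraries for nearly every gene, ISG20 being the clearest exception, and RSAD2 spans the widest range.

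ConA against untreated asks what mitogen stimulation did to these genes. Their transcripts fell broadly: 26 of the 31 tested rows were lower in ConA cells and 0 were higher at an adjusted p under 0.05 by edgeR's quasi-likelihood test, and all 29 with an unadjusted p under 0.05 had a lower level. Of all 13358 genes tested, 8.57% were called lower and 9.93% higher, and 4302 had an unadjusted p under 0.05 in either direction. The median log2 fold change was -1.56 over the interferon-stimulated genes and -0.05 over all genes. ConA means ran from 5.33 to 102% of the untreated mean, with a median of 33.9%, and 10 of the 31 were under 25% of it.

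With the number as a block, 30 of the 31 were called lower and 0 higher, where 21.2% of all genes were called lower and 21.3% higher. The ranges of the 3 ConA and 3 untreated libraries did not overlap for 28 of the 31, all lower, against 18% of all genes lower without overlap. Within numbers, 29 were lower in all 3, against 34.3% of all genes, and the exceptions were ISG20 and IFIT5. The median ratio was smallest in number 3, at -1.02 on the log2 scale, against -1.78 in number 1 and -1.79 in number 2.

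The count without the block dropped when a number was left out. Without the number 2 libraries, 0 of the 31 were called by edgeR, although 25 had an unadjusted p under 0.05 and the median stayed at -1.32; over all genes that fit called 42 higher and 13 lower. Without number 1 it called 15 lower, where 6.81% of all genes were, and without number 3 it called 17, where 3.15% were. With the block, 26, 27 and 30 were called lower without numbers 1, 2 and 3, where 12.6, 12.2 and 19.3% of all genes were.

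Signalling came down to STAT2, a subunit of the interferon-activated transcription factor complex, since IRF7 and IRF9 were not analysed. STAT2, on chromosome 10 at 642718 to 658546 of CanFam3.1 with 24 annotated exons, had 74.6, 77.1 and 84.4 CPM in ConA libraries, against 190, 201 and 147 CPM in untreated libraries. The ConA libraries lay close together and all below the untreated ones, with a log2 fold change of -1.19 ± 0.18 (SE; edgeR adjusted p = 0.00126).

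All 5 tested RNA sensors fell. DHX58, which encodes LGP2, a regulator of RIG-I-like sensing, had 33.1, 38.7 and 27.1 CPM in ConA libraries, against 148, 166 and 94.1 CPM in untreated libraries, a log2 fold change of -2.05 ± 0.29 (edgeR adjusted p = 0.000952). EIF2AK2, which encodes PKR, the kinase that halts translation on double-stranded RNA, had 4.12, 4.92 and 4.48 CPM in ConA libraries, against 15.4, 17.7 and 10.5 CPM in untreated libraries (-1.69 ± 0.33; edgeR adjusted p = 0.00488). Neither gene's groups overlapped. ZBP1, a sensor of Z-form nucleic acid that can trigger cell death, had 36.0, 58.3 and 55.1 CPM in ConA libraries, against 97.6, 159 and 92.9 CPM in untreated libraries (-1.23 ± 0.30; edgeR adjusted p = 0.0155). ADAR, the editing enzyme that marks double-stranded RNA as self, had the smallest fold change of the 5, with 103, 85.4 and 90.0 CPM in ConA libraries, against 207, 148 and 147 CPM in untreated libraries (-0.85 ± 0.20; edgeR adjusted p = 0.0111). DDX58, the RIG-I sensor itself, fell by 1.61 ± 0.47 on the log2 scale (edgeR adjusted p = 0.0343). Its call was lost without untreated library 2, where the adjusted p was highest at 0.154, and without any 1 of the 3 ConA libraries. ZBP1 lost its call without ConA library 1 or untreated library 2.

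The OAS enzymes sense double-stranded RNA and make short oligoadenylates. OAS1, OAS3 and OAS2 lie side by side on chromosome 26, at 10385447 to 10396733, 10404414 to 10423039 and 10432042 to 10449009, and all 3 fell. OAS1 had 17.1, 38.9 and 26.1 CPM in ConA libraries, against 189, 343 and 120 CPM in untreated libraries, a log2 fold change of -2.99 ± 0.48 (edgeR adjusted p = 0.00159). OAS3 had 23.2, 42.7 and 29.3 CPM in ConA libraries, against 143, 211 and 82.4 CPM in untreated libraries (-2.20 ± 0.45; edgeR adjusted p = 0.00639). OAS2 had 50.5, 70.9 and 67.1 CPM in ConA libraries, against 148, 243 and 152 CPM in untreated libraries (-1.53 ± 0.28; edgeR adjusted p = 0.00346). No pair of groups overlapped, and the difference between these fold changes was not tested.

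The OASL copies, OAS-like proteins that act through RIG-I, lie further along chromosome 26, with OASL_1 at 16837376 to 16850388 and OASL_2 at 16855386 to 16869102. OASL_2 had 23.1, 20.5 and 26.9 CPM in ConA libraries, against 36.2, 37.8 and 39.7 CPM in untreated libraries, and fell by 0.69 ± 0.18 on the log2 scale (edgeR adjusted p = 0.0209). OASL_1 had a log2 fold change of -0.66 ± 0.22 that did not pass (edgeR adjusted p = 0.0563) and passed with the block. The ranges did not overlap for either copy. The call of OASL_2 was lost without ConA library 1 or 2, or untreated library 2 or 3.

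IFIT proteins bind viral RNA ends and block their translation. IFIT2 and the overlapping rows IFIT3 and IFIT1 lie on chromosome 4 between 62801 and 132981, whereas IFIT5 lies on chromosome 28 at 4318732 to 4328785. IFIT1 had 8.70, 8.72 and 11.9 CPM in ConA libraries, against 88.8, 115 and 38.9 CPM in untreated libraries, a log2 fold change of -3.05 ± 0.46 (edgeR adjusted p = 0.00126). IFIT3 had 8.86, 7.37 and 7.82 CPM in ConA libraries, against 57.3, 68.7 and 23.3 CPM in untreated libraries (-2.63 ± 0.42; edgeR adjusted p = 0.00155). IFIT2 had 2.35, 1.43 and 2.13 CPM in ConA libraries, against 24.0, 19.1 and 8.78 CPM in untreated libraries (-3.12 ± 0.55; edgeR adjusted p = 0.00266). In all 3 genes every ConA library was below every untreated one, and untreated library 3 was well under the other two. IFIT5 differed: it had 22.8, 9.67 and 15.1 CPM in ConA libraries, against 31.3, 32.3 and 14.9 CPM in untreated libraries. Its groups overlapped, and -0.72 ± 0.36 on the log2 scale did not pass (edgeR adjusted p = 0.197), but it passed with the block. Of IFIT1 exon reads 78.0% were unique to it, so its value is uncertain to that extent; the same test on unique reads called as many of the 31, 26.

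Among effectors at membranes and on nucleotides, RSAD2 had the largest fold change of the list and ISG20 the smallest. RSAD2 encodes viperin, which makes a chain-terminating nucleotide, and lies on chromosome 17 at 4487957 to 4507181. It had 1.16, 0.159 and 1.21 CPM in ConA libraries, against 19.7, 23.1 and 4.54 CPM in untreated libraries (-4.17 ± 0.80; edgeR adjusted p = 0.00443). The ConA libraries held only 30, 2 and 17 exon reads of RSAD2, so the size of its fold change is uncertain. MX2, an interferon-induced GTPase, had 117, 444 and 285 CPM in ConA libraries, against 663, 2558 and 713 CPM in untreated libraries (-2.22 ± 0.68; edgeR adjusted p = 0.0410). BST2, or tetherin, which holds virus particles at the cell surface, had 34.1, 33.2 and 18.3 CPM in ConA libraries, against 129, 107 and 51.0 CPM in untreated libraries (-1.74 ± 0.41; edgeR adjusted p = 0.0118). In these 3 genes the groups did not overlap. ISG20, a nuclease of single-stranded RNA, had 161, 328 and 285 CPM in ConA libraries, against 141, 382 and 240 CPM in untreated libraries. Its groups overlapped fully and its log2 fold change was 0.02 ± 0.40 (edgeR adjusted p = 0.979), the only value above 0 in the list, with no call with the block either.

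The MX2 row spans chromosome 31 from 35860590 to 35951350 with 33 annotated exons. A RefSeq annotation of another dog assembly, UU_Cfam_GSD_1.0, lists MX1 directly after MX2, so which MX gene its reads came from was not resolved. The MX2 call was lost without untreated library 2, with an adjusted p of 0.201, and without ConA library 1 or 3, ConA+ALA library 3 or ALA library 3.

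The 3 tested genes of the ISG15 and ubiquitin system all fell. ISG15, the ubiquitin-like modifier, had 20.1, 86.7 and 45.5 CPM in ConA libraries, against 121, 449 and 118 CPM in untreated libraries, a log2 fold change of -2.18 ± 0.67 (edgeR adjusted p = 0.0436). HERC6, known in mouse as an ISG15 ligase, had 33.5, 48.5 and 37.4 CPM in ConA libraries, against 127, 219 and 85.2 CPM in untreated libraries (-1.85 ± 0.34; edgeR adjusted p = 0.00367). TRIM25, the ubiquitin ligase that activates RIG-I, had 25.3, 22.04 and 15.1 CPM in ConA libraries, against 55.5, 47.3 and 29.1 CPM in untreated libraries (-1.08 ± 0.31; edgeR adjusted p = 0.0330). None of these 3 overlapped between groups. ISG15 was highest in number 2 in both groups, and its adjusted p was 0.203 without untreated library 2; it also lost its call without ConA library 1 or 3, ConA+ALA library 3, or ALA library 1 or 3. TRIM25 lost its call without ConA library 2 or 3, or untreated library 1 or 2.

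PARP9 and DTX3L form a ubiquitin ligase complex, and PARP14 is an ADP-ribosyltransferase encoded nearby on chromosome 33. DTX3L, at 25677076 to 25684175, had 40.7, 63.1 and 66.6 CPM in ConA libraries, against 211, 276 and 157 CPM in untreated libraries. Its log2 fold change was -1.92 ± 0.27, with the smallest adjusted p of the list in this comparison (edgeR adjusted p = 0.000864). PARP9, at 25643883 to 25677462 on the other strand, had 20.6, 21.7 and 23.6 CPM in ConA libraries, against 107, 112 and 56.3 CPM in untreated libraries (-2.06 ± 0.30; edgeR adjusted p = 0.00103). PARP14 had 54.1, 49.3 and 65.9 CPM in ConA libraries, against 126, 175 and 93.4 CPM in untreated libraries (-1.22 ± 0.25; edgeR adjusted p = 0.00624). All 3 genes were lower with no overlap. PARP9 and DTX3L overlap at their starts and the counting strand is not stated, but at least 99.8% of their exon reads were unique.

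Of the remaining 6 tested genes, 4 fell. SAMD9L, a single-exon gene on chromosome 14 whose product restrains translation of viral RNA, had 160, 172 and 266 CPM in ConA libraries, against 664, 642 and 459 CPM in untreated libraries (-1.56 ± 0.26; edgeR adjusted p = 0.00188). IFI44, at 68364494 to 68377876 on chromosome 6 beside IFI44L, had 63.4, 57.6 and 54.6 CPM in ConA libraries, against 180, 200 and 94.2 CPM in untreated libraries (-1.43 ± 0.27; edgeR adjusted p = 0.00373). SP100, a protein of nuclear bodies that silence viral DNA, had 117, 188 and 187 CPM in ConA libraries, against 334, 496 and 308 CPM in untreated libraries (-1.21 ± 0.28; edgeR adjusted p = 0.0114). None of these overlapped between groups. IFI35, which pairs with NMI in innate signalling, had 32.2, 34.2 and 33.0 CPM in ConA libraries, against 63.2, 92.4 and 57.6 CPM in untreated libraries (-1.10 ± 0.21; edgeR adjusted p = 0.00461). IFI44L, at -1.26 ± 0.41 on the log2 scale (edgeR adjusted p = 0.0524), and the pro-apoptotic XAF1, at -1.31 ± 0.59 (edgeR adjusted p = 0.147), did not pass, and both passed with the block. XAF1 was the only one of the 6 whose groups overlapped.

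**Figure D2:**
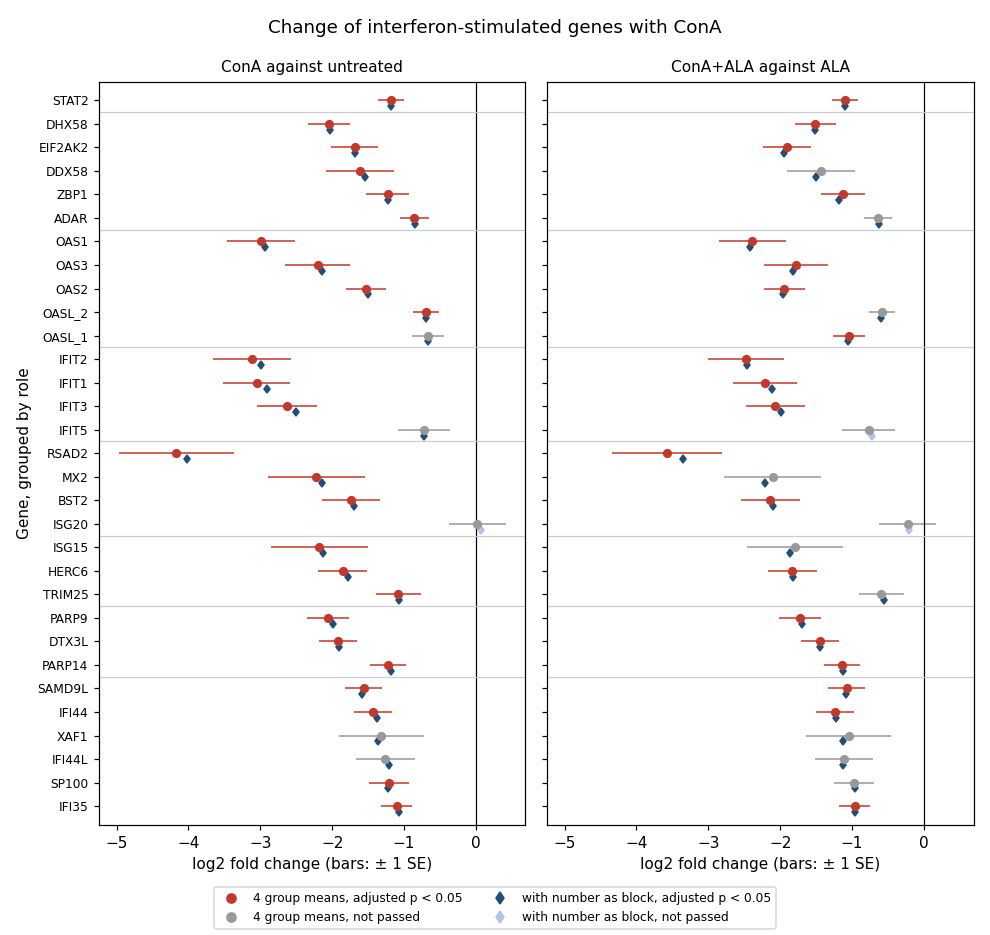
Log2 fold change of the 31 tested genes in ConA against untreated cells (left) and ConA+ALA against ALA cells (right), with bars of 1 SE; circles are from the model of 4 group means and diamonds from the model with the number as a block. All but ISG20 lie below 0 on the left and all lie below 0 on the right, and RSAD2 lies furthest left in both, at -4.17 and -3.58.

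ConA+ALA against ALA repeats the ConA comparison in other libraries of the same numbers. Of the 31 genes, 20 fell, 0 rose and all 31 had a log2 fold change below 0, with a median of -1.43 against -0.07 over all genes. Of all genes 3.03% were called lower and 5.09% higher. With the block 29 fell and 0 rose, where 14.3% of all genes were called lower and 15.8% higher. All 31 were lower within each of the 3 numbers, against 32.2% of all genes, and 28 had no overlap between groups, against 13.3%. The ranges overlapped for ISG20, XAF1 and TRIM25.

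OAS2 had the smallest adjusted p, with 52.2, 76.3 and 57.8 CPM in ConA+ALA libraries, against 293, 256 and 167 CPM in ALA libraries (-1.94 ± 0.28; edgeR adjusted p = 0.00298). STAT2 had 80.8, 96.5 and 91.6 CPM in ConA+ALA libraries, against 209, 191 and 176 CPM in ALA libraries (-1.10 ± 0.18; edgeR adjusted p = 0.00461). The ConA+ALA libraries of both genes lay far below the ALA ones. PARP9 had 30.0, 30.5 and 22.1 CPM in ConA+ALA libraries, against 107, 106 and 60.2 CPM in ALA libraries (-1.72 ± 0.29; edgeR adjusted p = 0.00587). EIF2AK2 had 2.93, 5.91 and 7.35 CPM in ConA+ALA libraries, against 22.2, 19.7 and 18.5 CPM in ALA libraries (-1.91 ± 0.33; edgeR adjusted p = 0.00644). DTX3L had 67.9, 87.4 and 82.3 CPM in ConA+ALA libraries, against 212, 256 and 181 CPM in ALA libraries (-1.45 ± 0.26; edgeR adjusted p = 0.00739). None of these 3 overlapped either, and all 5 kept their call in each of the 12 fits that left out 1 library.

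By role, 3 of 5 RNA sensors, 4 of 5 OAS rows, 3 of 4 IFIT genes, 2 of 4 membrane or nucleotide effectors, 1 of 3 genes of the ISG15 system, all 3 PARP and DTX3L genes, 3 of 6 other genes and STAT2 fell. The 11 genes that did not pass were ADAR, DDX58, OASL_2, IFIT5, MX2, ISG20, ISG15, TRIM25, IFI44L, XAF1 and SP100. Of these, all but IFIT5 and ISG20 passed with the block. ISG15, for example, had a log2 fold change of -1.79 ± 0.66 (edgeR adjusted p = 0.128) and MX2 of -2.10 ± 0.68 (edgeR adjusted p = 0.0804). OASL_1, which had missed the threshold with ConA alone, fell by 1.04 ± 0.22 on the log2 scale (edgeR adjusted p = 0.0156), a call that was lost without ConA+ALA library 1 or 2 or ALA library 2. The count of 20 was 10 without ConA+ALA library 1, 13 without ConA+ALA library 3, 13 without ALA library 1 and 12 without ALA library 2. The share of all genes called lower dropped as well, to 1.15, 1.07, 0.991 and 1.08% in these 4 fits. The count was 6, 0 and 5 without numbers 1, 2 and 3, where 2.09, 0 and 0.274% of all genes were called lower; without number 2 edgeR called 0 of all genes in either direction, and 25 of the 31 had an unadjusted p under 0.05. With the block it was 24, 24 and 30, where 6.66, 5.77 and 12.7% of all genes were called lower.

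Intron reads, whose origin was not tested, gave a measure apart from exon reads. SAMD9L has 1 annotated exon yet 6740 intron reads, so this read class is not confined to annotated introns. SAMD9L stays counted among the 31, as do the 9 rows of the list that overlap another row and may share its reads. On intron reads 18 of the 31 fell in ConA against untreated cells, where 3.14% of all genes were called lower, and 27 fell with the block, where 16% of all genes were. In ConA+ALA against ALA cells 4 fell, where 0.477% of all genes were called lower, and 27 fell with the block, where 10.2% were. The median log2 fold change on intron reads was -1.42 with ConA and -1.22 with ConA+ALA against ALA, and 30 of 31 lay below 0 in each comparison. MX2 had an intron log2 fold change of -2.26 ± 0.48 (edgeR adjusted p = 0.0153) and OAS1 of -2.67 ± 0.44 (edgeR adjusted p = 0.00472) in ConA against untreated cells. Their values on exon reads were -2.22 and -2.99. Other genes differed more between the read classes: IFIT2, with 347 intron reads in all libraries, had an intron log2 fold change of -1.12 against -3.12 on exon reads, EIF2AK2 -2.89 against -1.69 and IFIT5 0.16 against -0.72. Leaving ISG15 aside, 22 of 30 genes lay within 0.5 of their exon value in ConA against untreated cells, and 27 of 30 in ConA+ALA against ALA cells. The ISG15 row spans 9 other rows on chromosome 5 from 56236318 to 56404695, so its intron reads are not its own, although it is counted among the 31; it is the 1 gene not below 0 in ConA+ALA against ALA cells.

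The number mattered for the level as well as the group. In untreated cells 25 of the 31 genes were highest in library 2 and 25 were lowest in library 3, and in ALA cells 25 were lowest in library 3. ISG20, XAF1, ISG15, IFI44L, IFI35, DHX58, DDX58, ZBP1, SP100, OAS1, OAS3, MX2 and HERC6, 13 genes in all, were highest in number 2 in all 4 groups. MX2 shows the size of this: untreated library 2 had 2558 CPM, against 663 and 713 CPM in untreated libraries 1 and 3. These counts were not made over all tested genes, so whether the pattern is particular to the list was not tested.

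Of 9 listed interferon genes 4 had a row, and of these only IFNG had enough reads to test. IFNA4, IFNA8, IFNE, IFNL1 and IFNL3 had no row of that name and were not analysed. The lists of related genes that follow were chosen with results of these data known. Their counts stand beside 8.57% of all genes called lower and 9.93% higher in ConA against untreated cells. With the block these shares were 21.2% and 21.3%. In ConA+ALA against ALA cells 3.03% of all genes were called lower and 5.09% higher. IFNB1, the gene of interferon beta, had 0 exon reads in ConA libraries together, which allows up to 3, and 8 in ConA+ALA, 28 in ALA and 14 in untreated libraries. IFNA7 and IFNK had no reads in any library. IFNG, the gene of interferon gamma, made by T and NK cells, had 101, 28.8 and 106 CPM in ConA libraries, against 4.28, 0.388 and 1.57 CPM in untreated libraries. It rose by 5.21 ± 0.86 on the log2 scale (edgeR adjusted p = 0.00220), and by 5.00 ± 0.86 in ConA+ALA against ALA cells (edgeR adjusted p = 0.00661). Every ConA library was thus far above every untreated library.

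Of a list of genes known to respond to interferon gamma, 7 of 14 tested rose and 1 fell in ConA against untreated cells, and 9 rose and 2 fell with the block. IDO1, which degrades tryptophan, had 1918, 1384 and 1687 CPM in ConA libraries, against 79.7, 144 and 363 CPM in untreated libraries (3.09 ± 0.45; edgeR adjusted p = 0.00112). CXCL10, the chemokine, rose by 2.14 ± 0.42 on the log2 scale (edgeR adjusted p = 0.00473), ICAM1 by 1.69 ± 0.26 (edgeR adjusted p = 0.00129) and CD274, or PD-L1, by 1.76 ± 0.34 (edgeR adjusted p = 0.00456). FCGR1A, an antibody receptor of myeloid cells, fell by 2.31 ± 0.45 (edgeR adjusted p = 0.00459). IRF1 had 735, 734 and 744 CPM in ConA libraries, against 455, 432 and 700 CPM in untreated libraries, and did not pass (0.48 ± 0.23; edgeR adjusted p = 0.169). In ConA+ALA against ALA cells 4 of the 14 rose and 0 fell. There IDO1 had 224, 199 and 196 CPM in ConA+ALA libraries, against 139, 189 and 158 CPM in ALA libraries, and did not pass (0.35 on the log2 scale; edgeR adjusted p = 0.692).

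Of other interferon-stimulated genes, outside the 39, 21 of 35 tested fell and 0 rose with ConA, with a median log2 fold change of -1.18. With the block 28 fell and 1 rose, and in ConA+ALA against ALA cells 12 fell and 0 rose. DDX60, a helper of RIG-I, fell by 2.07 ± 0.33 on the log2 scale (edgeR adjusted p = 0.00164), TRIM22 by 2.71 ± 0.44 (edgeR adjusted p = 0.00186), HELZ2 by 1.38 ± 0.24 (edgeR adjusted p = 0.00236) and RTP4 by 1.80 ± 0.31 (edgeR adjusted p = 0.00251).

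Upstream, 4 of 15 tested genes of nucleic acid sensing fell and 1 rose with ConA. With the block 9 fell and 2 rose, where 21.2% of all genes were called lower and 21.3% higher. The fallers without the block were MYD88, the adaptor of Toll-like receptors (-1.24 ± 0.24; edgeR adjusted p = 0.00440), TMEM173, which encodes STING (-2.20 ± 0.36; edgeR adjusted p = 0.00194), CGAS, the DNA sensor that feeds STING (-2.15 ± 0.41; edgeR adjusted p = 0.00439), and IRF5 (-1.31 ± 0.37; edgeR adjusted p = 0.0294). TRAF3, an adaptor between sensors and kinases, rose by 1.04 ± 0.16 (edgeR adjusted p = 0.00124). Of 7 tested receptor and signalling genes 1 rose and 2 fell. JAK2 rose by 0.75 ± 0.22 (edgeR adjusted p = 0.0323), and TYK2 fell by 1.11 ± 0.28 (edgeR adjusted p = 0.0177). With the block 4 of these 7 fell and 1 rose. Of 8 feedback inhibitors 0 passed by edgeR, with 4 at an unadjusted p under 0.05, and 4 rose and 1 fell with the block. Among them SOCS1 had a log2 fold change of 1.01 ± 0.42 (edgeR adjusted p = 0.113). The calls of IRF5, JAK2 and TYK2 were each lost without at least 1 single library: the adjusted p reached 0.121 for IRF5 and 0.122 for JAK2 without untreated library 2, and 0.0712 for TYK2 without untreated library 1.

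**Figure D3:**
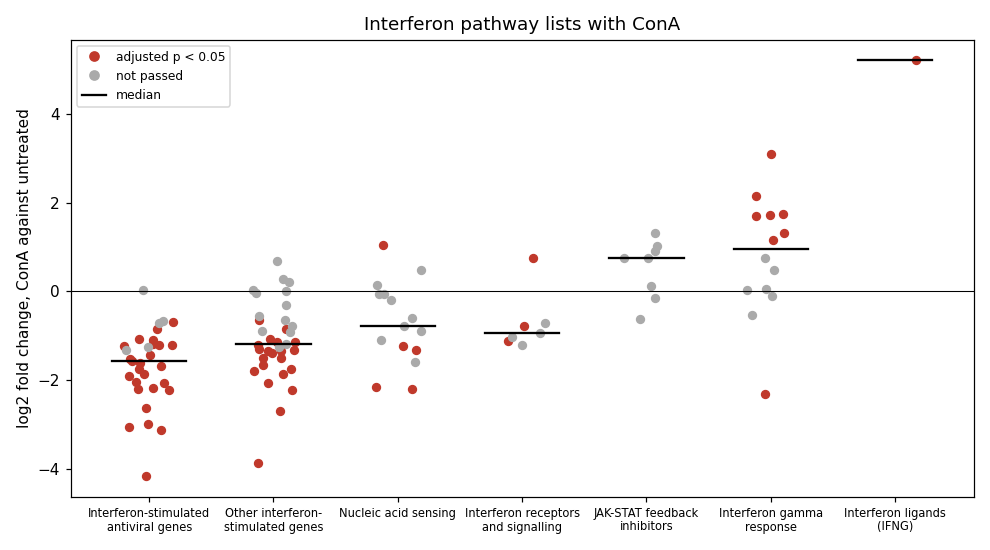
Log2 fold change in ConA against untreated cells of the 31 interferon-stimulated antiviral genes and of the tested genes of 6 related lists, 1 point per gene, with the median as a line. The antiviral genes and the other interferon-stimulated genes have medians of -1.56 and -1.18, the interferon gamma response has a median of 0.96, and IFNG alone stands at 5.21.

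The median log2 fold change with ConA was negative in each of the 9 lists of cell type markers. It ran from -2.00 for neutrophil to -0.32 for dendritic cell markers, against -0.05 over all genes. Of all genes, 8.57% were called lower and 9.93% higher with ConA, and 21.2% lower and 21.3% higher with the block. Summed monocyte markers ran from 147 to 476 CPM in ConA libraries and 178 to 457 CPM in ConA+ALA libraries, against 424 to 2144 CPM in ALA libraries and 560 to 1186 CPM in untreated libraries. Of 13 listed markers 12 had a row and 11 were tested; 4 fell with ConA, and 9 with the block. FCN1 had 0 reads in every library, and CD14 had no row of that name. Summed markers of plasmacytoid dendritic cells, a main source of type I interferon, ran from 51.8 to 113 CPM in ConA and 54.1 to 110 CPM in ConA+ALA libraries, against 90.1 to 152 CPM in ALA and 72.6 to 155 CPM in untreated libraries. Of the 5 tested of 8 listed, 0 passed by edgeR without the block, with 1 at an unadjusted p under 0.05, and 3 fell and 1 rose with it.

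Lymphocyte markers were present throughout: T cell markers summed to 803 to 1395 CPM in ConA, 843 to 1399 CPM in ConA+ALA, 1041 to 1538 CPM in ALA and 1212 to 2044 CPM in untreated libraries. B cell markers summed to 1433 to 2480 CPM in ConA, 1826 to 2705 CPM in ConA+ALA, 1424 to 2593 CPM in ALA and 1574 to 2705 CPM in untreated libraries. With ConA 3 of 12 T cell markers fell and 1 rose, and 8 fell and 1 rose with the block. Of 8 B cell markers 2 fell, and 6 with the block. Neutrophil markers summed to 160 to 338 CPM in ConA libraries and 867 to 2711 CPM in ConA+ALA libraries, against 962 to 3102 CPM in ALA libraries and 850 to 978 CPM in untreated libraries, and 3 of 6 tested fell with ConA. NK cell markers summed to 32.7 to 71.7 CPM in ConA libraries, against 57.2 to 124 CPM in untreated libraries, and 2 of 5 tested fell, and 3 with the block. Their sums were 60.3 to 106 CPM in ConA+ALA libraries, against 58.6 to 70.9 CPM in ALA libraries. Summed dendritic cell markers were higher with ConA, at 131 to 370 CPM in ConA and 144 to 226 CPM in ConA+ALA libraries. They ran from 46.3 to 54.3 CPM in ALA and from 33.7 to 62.4 CPM in untreated libraries. Of 4 tested dendritic cell markers 1 rose and 1 fell with ConA, and 1 rose and 2 fell with the block, and 0 of 3 platelet and 0 of 6 erythroid markers passed by edgeR, with 0 at an unadjusted p under 0.05 in either list and 3 erythroid markers lower with the block. The part of these shifts in the decrease of the interferon-stimulated genes was not tested.

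ALA against untreated asks what ALA did without the mitogen; it shares its untreated libraries with the ConA comparison. By edgeR 0 of the 31 genes passed in either direction, 0 had an unadjusted p under 0.05, and DESeq2 called 0; of all genes 0% were called higher and 0% lower. With the block 0 of the 31 passed, where 0.0449% of all genes were called higher. An unadjusted p under 0.05 with the block was reached by 8 of the 31 and by 837 of all 13358 genes. Without the block it was reached by 155 of all genes. ALA means ran from 93.6 to 190% of the untreated mean, with a median log2 fold change of 0.18 against -0.00 over all genes, and 27 of 31 lay above 0. Of the 31, 14 were higher in all 3 numbers, against 14.8% of all genes. Only EIF2AK2 had no overlap between groups, against 1.91% of all genes higher without overlap.

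The 5 genes with the smallest p without the block show how wide the spread between libraries was, differences between numbers included. EIF2AK2 had 22.2, 19.7 and 18.5 CPM in ALA libraries, against 15.4, 17.7 and 10.5 CPM in untreated libraries, a log2 fold change of 0.47 ± 0.32 (edgeR adjusted p = 1.00). OAS2 had 293, 256 and 167 CPM in ALA libraries, against 148, 243 and 152 CPM in untreated libraries (0.40 ± 0.27; edgeR adjusted p = 1.00). The ALA libraries of OAS2 reached into the untreated range. RSAD2 had 53.3, 27.9 and 8.85 CPM in ALA libraries, against 19.7, 23.1 and 4.54 CPM in untreated libraries (0.93 ± 0.68; edgeR adjusted p = 1.00). HERC6 had 211, 220 and 132 CPM in ALA libraries, against 127, 219 and 85.2 CPM in untreated libraries (0.38 ± 0.33; edgeR adjusted p = 1.00). OAS1 had 320, 389 and 185 CPM in ALA libraries, against 189, 343 and 120 CPM in untreated libraries (0.45 ± 0.44; edgeR adjusted p = 1.00). Within each number the ALA library was the higher one for all 5 genes. With the block the smallest p belonged to other genes, none of which passed. These were ISG20 (0.44 ± 0.13; edgeR with the block, unadjusted p = 0.00426, adjusted p = 0.514), ISG15 (0.71 ± 0.23; edgeR with the block, unadjusted p = 0.0116, adjusted p = 0.634) and BST2 (0.38 ± 0.14; edgeR with the block, unadjusted p = 0.0152, adjusted p = 0.665).

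ConA+ALA against ConA asks what ALA did in the presence of the mitogen, and shares libraries with both comparisons of ConA. By edgeR 0 of the 31 passed in either direction, 2 had an unadjusted p under 0.05, and DESeq2 called 0; of all genes 0% were called higher and 0% lower. With the block 0 of the 31 passed, where 0.337% of all genes were called higher and 0.217% lower. An unadjusted p under 0.05 with the block was reached by 14 of the 31 and by 1311 of all 13358 genes. Without the block it was reached by 445 of all genes. The median log2 fold change was 0.41 over the 31 and -0.03 over all genes, and 28 of the 31 lay above 0. ConA+ALA was the higher library in all 3 numbers for 21, against 16.2% of all genes. The groups did not overlap, ConA+ALA being higher, for IFIT1, IFIT3, IFI44, IFI35, RSAD2 and DTX3L, 6 of 31, against 4.05% of all genes.

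IFIT1 had 16.8, 24.1 and 19.7 CPM in ConA+ALA libraries, against 8.70, 8.72 and 11.9 CPM in ConA libraries, a log2 fold change of 1.04 ± 0.44 (edgeR unadjusted p = 0.0352, adjusted p = 1.00). OAS1 had 38.3, 84.6 and 47.8 CPM in ConA+ALA libraries, against 17.1, 38.9 and 26.1 CPM in ConA libraries (1.06 ± 0.45; edgeR unadjusted p = 0.0365, adjusted p = 1.00). In both genes the ConA+ALA library was the higher one in each number, yet in OAS1 the groups overlapped. SAMD9L had 239, 279 and 330 CPM in ConA+ALA libraries, against 160, 172 and 266 CPM in ConA libraries (0.50 ± 0.25; edgeR adjusted p = 1.00). RSAD2 had 2.20, 2.62 and 2.76 CPM in ConA+ALA libraries, against 1.16, 0.159 and 1.21 CPM in ConA libraries (1.52 ± 0.78; edgeR adjusted p = 1.00). These RSAD2 values rest on few exon reads, 51, 35 and 30 in ConA+ALA libraries and 30, 2 and 17 in ConA libraries. DTX3L had 67.9, 87.4 and 82.3 CPM in ConA+ALA libraries, against 40.7, 63.1 and 66.6 CPM in ConA libraries (0.48 ± 0.26; edgeR adjusted p = 1.00). In these 5 genes every ConA+ALA library stayed below every untreated library. Over the 31 genes the ConA+ALA mean was a median 47.4% of the untreated mean, 18 were under 50% of it, and ISG20 was above it at 112%. The order of the genes differed with the block, where none passed. OAS1 had the smallest p (1.04 ± 0.25; edgeR with the block, unadjusted p = 0.00155, adjusted p = 0.122). ISG15 (edgeR with the block, unadjusted p = 0.00185, adjusted p = 0.126) and XAF1 (edgeR with the block, unadjusted p = 0.00318, adjusted p = 0.167) came next. IFIT1 had an unadjusted p of 0.0662 by edgeR with the block.

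**Figure D4:**
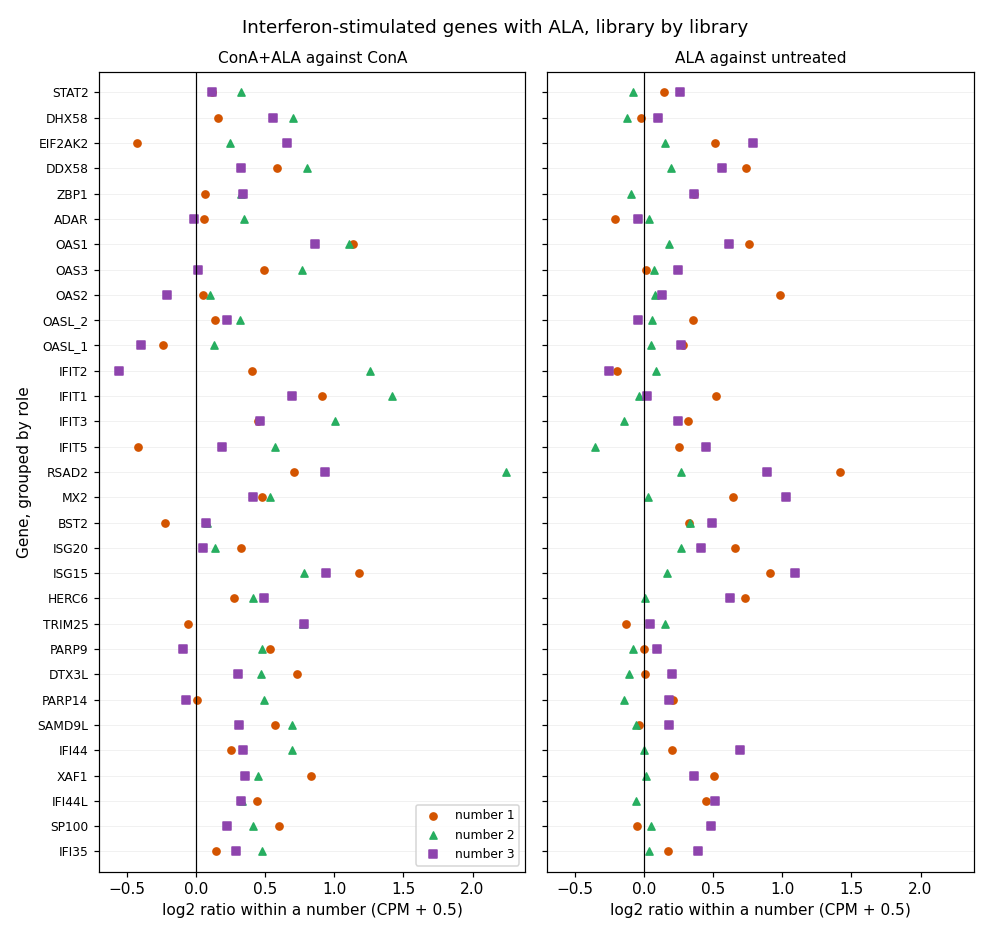
Log2 ratio of the 31 tested genes within each number, ConA+ALA against ConA (left) and ALA against untreated (right), from CPM with 0.5 added; 1 point per number. Most points lie right of 0: 21 genes on the left and 14 on the right have all 3 points there, while by edgeR no gene passed in either comparison.

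The interaction of ConA and ALA, the difference between the ALA effects with and without the mitogen, was called for 0 of the 31 genes by edgeR, with 0 at an unadjusted p under 0.05 and 0 called by DESeq2; of all genes 0% were called higher and 0% lower. The median over the 31 was 0.20 on the log2 scale, against -0.02 over all genes. The smallest p-values belonged to IFIT1 at 0.84 ± 0.61, SAMD9L at 0.49 ± 0.35, DHX58 at 0.54 ± 0.39, DTX3L at 0.47 ± 0.36 and OASL_1 at -0.38 ± 0.31 (SE; edgeR adjusted p = 1.00 each). Without the block each of these differences was less than 1.5 times its SE. With the block 0 of the 31 passed and 1 had an unadjusted p under 0.05, as did 1004 of all 13358 genes. That gene was DHX58, at 0.51 ± 0.21 (edgeR with the block, unadjusted p = 0.0282, adjusted p = 0.621). In ALA libraries, whose values are not given above for these 2 genes, IFIT1 had 127, 112 and 39.5 CPM and SAMD9L had 649, 616 and 520 CPM. DHX58 had 37.1, 63.3 and 40.0 CPM in ConA+ALA libraries and 33.1, 38.7 and 27.1 CPM in ConA libraries, with 146, 153 and 101 CPM in ALA libraries and 148, 166 and 94.1 CPM in untreated libraries. OASL_1 had 67.0, 86.4 and 89.2 CPM in ConA+ALA libraries and 79.1, 79.0 and 118 CPM in ConA libraries, with 167, 182 and 150 CPM in ALA libraries and 137, 176 and 124 CPM in untreated libraries. In both genes the ConA and ConA+ALA ranges lay below those of the groups without ConA.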

How the data were processed

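The libraries were poly(A) RNA sequenced with 75 bp paired ends on a NextSeq 500, per the labels' protocols. CanFam3.1 and bcl2fastq are named as build and tool in the submitters' processing notes. Aligner, counter and strand setting: not given in the sources used here. Each deposited table holds exon, intron and total gene reads as counts per Ensembl gene and TPM, which the authors normalized; TPM entered no test. Groups and numbers came from the sample titles. The gene list, the pathway lists and the tests were chosen with earlier results of these data known.

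Exon counts of all 12 libraries were fitted with edgeR 4.0.16 in R 4.3.3 (TMM, filterByExpr, robust quasi-likelihood F-test, 4 group means), with Benjamini-Hochberg adjustment over 13358 genes and a threshold of 0.05. SE is the absolute fold change over the root of F. The biological coefficient of variation was 0.422, and 0.217 with the number as a block. Deviations from group means correlated at 0.376 to 0.748 in the 18 pairs of libraries that share a number, and at -0.498 to 0.206 in the other 36. Every pair that shares a number was thus above every other pair, and the number, taken from the titles, was used as a block. The highest of the other 36 also passed the threshold of 0.1, so that threshold does not separate them. Subtracting means of 3 libraries also lowers the correlations of the other 36, so the contrast is partly built in. Per-library values were given for up to 4 genes of a role group by smallest p in ConA against untreated cells and for the 5 smallest p in other comparisons; up to 5 genes of each pathway list, and IFNG, IFNB1, IRF1 and CXCL10, were named, except items not reported here. Markers of 9 blood cell types were summed as CPM. Alternatives were DESeq2 1.42.0, RLE factors, other filters, other read classes, mitochondrial genes left out, the compared groups alone, left-out libraries, and the block. A planned description of promoter motifs was not run.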

Additional observations from a re-analysis of the deposited data

Results flagged for a closer look

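TRIM22, an interferon-stimulated gene outside the list of 39, drew attention because ALA went with opposite signs in the presence and absence of ConA. Within numbers 1, 2 and 3 the log2 ratio was 1.13, 1.16 and 0.42 in ConA+ALA against ConA cells, and -0.21, -0.19 and -0.01 in ALA against untreated cells. The means of these ratios differed by 1.04. TRIM22 had 313, 355 and 224 CPM in ConA+ALA libraries, against 142, 159 and 168 CPM in ConA libraries, and 1308, 933 and 474 CPM in ALA libraries, against 1518, 1068 and 477 CPM in untreated libraries. It was picked because all 3 numbers pointed one way in each contrast, a choice that carries no test, and edgeR called the interaction of ConA and ALA for 0 of all 13358 genes.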

How the results depend on the processing

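The 26 genes lower in ConA against untreated cells became 30 with the replicate block, 28 with DESeq2, 26 with RLE factors, 24 without a filter, 28 at a mean of at least 50 counts, 26 on unique exon reads, 18 on intron reads, 27 on total gene reads, 26 without mitochondrial genes and 21 with the compared groups alone. Leaving out replicates gave 0 to 26. Of all genes, 8.57% were called lower in this comparison in the main fit. In the order just given, the alternatives called 21.2, 12, 8.55, 4.33, 12, 8.74, 3.14, 6.31, 8.66 and 5.92% of them lower. Leaving out replicates gave 0.0956 to 8.19% of all genes. The count of the 31 thus moved along with the share of all genes in several settings. For ConA+ALA against ALA the 20 became 29, 26, 20, 21, 23, 20, 4, 23, 20 and 18 in the same order, and 0 to 21 on leaving out replicates. Of all genes, 3.03% were called lower there in the main fit. The alternatives called 14.3, 6.06, 3.09, 1.53, 4.65, 3.17, 0.477, 2.43, 3.06 and 1.9% lower, and leaving out replicates 0 to 3.22%. For ALA against untreated and for the interaction all counts were 0 under every alternative. In ConA+ALA against ConA, IFIT1 and OAS1 were called higher with the replicate block without number 3, where 59 of 13513 genes were. On intron reads with the replicate block 1, ISG15, was called higher, where 79 of 15305 genes were. The intron reads of the ISG15 row are not its own, so that call does not describe ISG15. Both settings were chosen after seeing the data. The block altered the calls of IFI44L, OASL_1, XAF1 and IFIT5 in ConA against untreated cells and of 9 genes in ConA+ALA against ALA cells, and changed no other call of the 31. Signs turned in few cases, and in none did the value pass the threshold; the cause was not tested. The log2 fold change of ISG20 with ConA was -0.0098 at a mean of at least 50 counts, -0.18 on intron reads, -0.17 on intron reads with the block, -0.024 with the block without number 3, and -0.27 to 0.45 on leaving out replicates. In ConA+ALA against ALA cells that of ISG20 was -0.45 to 0.077 on leaving out replicates, that of ISG15 0.24 on intron reads and 0.25 with the block, and that of IDO1 -0.0056 on intron reads with the block. IFIT5 with ConA had 0.16 on intron reads and 0.17 with the block. Depth limited IFI6 and RSAD2 most, RSAD2 having as few as 2 exon reads in a ConA library.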
